A study of Mus musculus with 21 samples.

Results

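Timp1, Mmp12 and Mmp14 were followed through the 21 brain samples of the series as 3 genes of matrix remodelling, which were picked by symbol among the 757 probes of the NanoString Mouse Neuroinflammation panel. The study asked how gene expression in the injured mouse brain changed over time and under a complement inhibitor. All mice were male C57BL6J, and the right hemisphere, which was the injured side, was measured. Groups of 3 mice received a controlled cortical impact, an open-head traumatic brain injury (TBI), followed by CR2-Crry at 16 mg/kg, and were killed on day 3, 7 or 28. CR2-Crry is a fusion protein that carries the complement inhibitor Crry to sites of complement deposition. In the PBS TBI groups, 3 mice per day received the vehicle after the same injury. Treatment was given 1 h after injury, and the day 28 groups of both arms received 3 further doses. The sham group held 3 mice that were anesthetized and had a scalp incision without craniotomy, and its label names PBS as treatment. Injured mice were 12 weeks old on day 3, 13 weeks old on day 7 and 16 weeks old on day 28, and the sham mice were 12, 13 and 16 weeks old (sham replicates 1, 2 and 3). The craniotomy and the impact therefore could not be told apart in any comparison with sham.

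Matrix metalloproteinases are zinc-dependent enzymes that cut proteins of the extracellular matrix, and tissue inhibitors of metalloproteinases block their active site. In the injured brain, the balance of both is known for its part in opening of the blood brain barrier, entry of leukocytes, clearing of debris and scar formation. Timp1 encodes a secreted inhibitor that is a known transcript of reactive astrocytes. Mmp12 encodes macrophage elastase, a secreted protease known mainly from macrophages and microglia, and Mmp14 encodes a protease anchored in the cell membrane that activates other proteases of the family. TIMP1 protein is known as a poor inhibitor of the MMP14 protein. The samples were whole hemispheres, so more cells of a type and more RNA per cell could not be told apart.

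The 3 genes lie on 3 chromosomes, and each has a probe target in its own RefSeq transcript. In GRCm38.p6, all on the plus strand, Timp1 spans chrX:20870166-20874737, Mmp12 chr9:7344397-7360461 and Mmp14 chr14:54431598-54442456. The 250 bases before a listed start are shown for each gene, because the 3 transcripts rose together after injury but on different time courses, and capitals mark matches to the motifs searched. For Mmp12, RefSeq lists 2 starts, and the second lies inside the gene span given above. Both stretches were searched, and the one before the second start is shown, at chr9:7347124-7347373. It is the one of the 2 with a motif match. The Timp1 stretch is chrX:20869916-20870165 and that of Mmp14 is chr14:54431348-54431597.
Timp1: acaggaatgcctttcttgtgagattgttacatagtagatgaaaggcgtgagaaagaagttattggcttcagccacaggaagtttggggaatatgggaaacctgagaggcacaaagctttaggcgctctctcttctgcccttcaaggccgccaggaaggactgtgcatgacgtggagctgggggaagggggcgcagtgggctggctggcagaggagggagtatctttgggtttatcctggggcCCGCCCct
Mmp12: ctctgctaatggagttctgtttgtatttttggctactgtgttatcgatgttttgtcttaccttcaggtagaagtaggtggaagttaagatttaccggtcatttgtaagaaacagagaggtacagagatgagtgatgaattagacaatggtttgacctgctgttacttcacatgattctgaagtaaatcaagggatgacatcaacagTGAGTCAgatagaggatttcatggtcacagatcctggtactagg
Mmp14: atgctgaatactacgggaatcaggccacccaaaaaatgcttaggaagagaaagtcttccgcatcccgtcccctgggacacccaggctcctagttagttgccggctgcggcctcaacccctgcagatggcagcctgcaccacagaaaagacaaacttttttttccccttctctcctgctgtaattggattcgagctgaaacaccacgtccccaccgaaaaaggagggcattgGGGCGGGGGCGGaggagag
The motifs were AP-1 (TGANTCA), the GC box (GGGCGG), the TATA box (TATAAA) and a STAT motif (TTCNNNGAA), searched on both strands. The Mmp12 stretch before the second start held 1 AP-1 match at bases -44 to -38 from that start. Of 32851 mouse promoters, 6.75% held one in the same window. That share is for promoters not picked by a match, while this stretch was the one of 2 with a match. The Timp1 stretch held 1 GC box on the minus strand at -8 to -3, and the Mmp14 stretch held 2 at -19 to -14 and -13 to -8, against 32.7% of all promoters with at least 1. The TATA box (12.4% of promoters) and the STAT motif (7.02%) had no match in these 3 stretches, and the stretch before the first Mmp12 start had no match to any of the 4 motifs. These matches describe letters in a window and were not tied to any measured value.

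Values are normalized counts, that is, molecules counted per probe and scaled by the study on housekeeping genes. Back-calculated totals lay between 750585 and 1023041 counts per sample. The lowest count behind a value of these genes was 10 (Mmp12 in sham replicate 3, counting error 31.6%) and the highest was 468 (Mmp14 in PBS TBI day 7 replicate 2, 4.62%). All 3 genes passed the filter of more than 20 in at least 3 samples, as did 740 probes. Mmp12 was under 20 in all 3 sham samples, so it passed through the injured samples. Differences were tested with limma on log2 values, adjusted over the 740 probes, and called at an adjusted p under 0.05.

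Timp1, the inhibitor, was highest on day 3 and lower on the later days. After CR2-Crry, it was measured at 248, 243 and 329 normalized counts on day 3, at 52.1, 60.8 and 72.7 on day 7 and at 77.9, 38.6 and 72.2 on day 28. In PBS TBI, the values were 327, 384 and 289 on day 3, 109.6, 193 and 105 on day 7 and 46.7, 77.1 and 52.8 on day 28. The sham samples had 13.4, 19.2 and 26.8, the lowest in the mouse of 12 weeks and the highest in the mouse of 16 weeks. That last mouse, sham replicate 3, also had a summed level of 8 reactive astrocyte markers of 3955, against 1093 and 1272 in sham replicates 1 and 2. Of these 8, Serpina3n lay between 90.41 and 149.01 in sham and Cd44 between 22.8 and 36.71. Most of the 3955 therefore came from other markers of the list. The part of age or of these markers in the Timp1 value of that mouse was not tested. Every injured sample lay above every sham sample, and the 6 samples of day 3 lay above all others.

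Mmp12, the macrophage elastase, was highest on day 7 and was still far above sham on day 28. CR2-Crry samples had 66.5, 68.3 and 75.5 normalized counts on day 3, at 109.6, 216 and 199.9 on day 7 and at 107, 124 and 156 on day 28. PBS samples had 151, 57.2 and 78.5 on day 3, 171, 128 and 175 on day 7 and 76.1, 116 and 104 on day 28. The sham samples had 13.4, 12.2 and 8.37. Values on the panel went down to 2.14, so whether a background threshold is contained in these low values could not be settled. The injured samples were all above sham, and PBS TBI day 3 replicate 1 was about as high as the samples of day 7 while its 2 companions were not.

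Mmp14, the membrane-bound protease, had the smallest rise and was already well counted in sham. Samples with CR2-Crry had 253, 286 and 346 normalized counts on day 3, at 189, 213 and 223 on day 7 and at 265, 203 and 224 on day 28. Samples with PBS had 255, 299 and 329 on day 3, 233, 517 and 289 on day 7 and 213, 206 and 244 on day 28. The sham samples had 139, 133 and 124. All injured samples again lay above sham. For none of the 3 genes was this separation set against all probes, of which 44.3% to 57.3% were called higher than sham. PBS TBI day 7 replicate 2 stood far above the other injured samples. That library was also the highest of its group for Timp1 and the lowest for Mmp12.

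**Figure D1:**
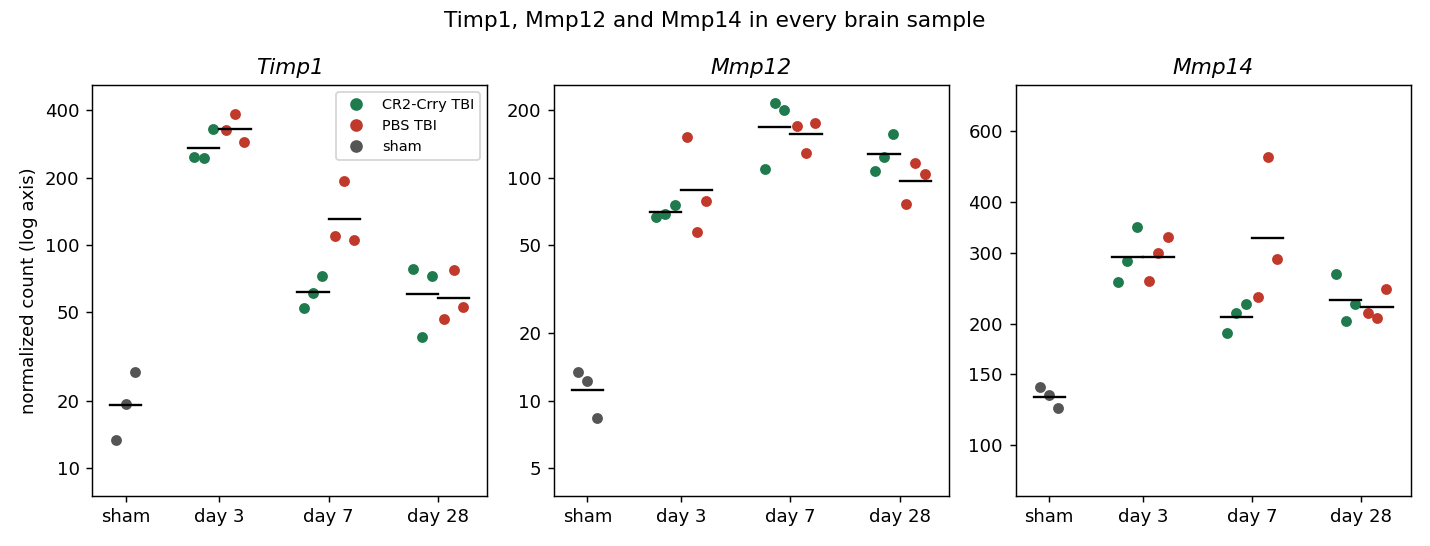
Normalized counts (log axis) of Timp1, Mmp12 and Mmp14 in all 21 samples, by day after injury, with CR2-Crry TBI (green) left of PBS TBI (red) and sham (grey) at the left end. Each point is a mouse and each bar the geometric mean of 3. Timp1 is highest on day 3, Mmp12 on day 7, and no injured sample overlaps with sham. The share of all probes with this separation was not counted.

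To place the injury response of these genes, each injured group was compared with sham. All 3 genes rose in all 6 comparisons, 18 calls of 18, but a rise was common on this panel. Among all probes, 53.0%, 48.0% and 44.3% were called higher in CR2-Crry TBI on days 3, 7 and 28, and 51.6%, 57.3% and 44.5% in PBS TBI. The calls therefore say little by themselves, and the genes are better described by the size of their change. The median probe differed from sham by 0.29, 0.24 and 0.21 on the log2 scale in CR2-Crry TBI and by 0.30, 0.36 and 0.21 in PBS TBI on the 3 days.

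Timp1 was 14.2-fold higher than sham in CR2-Crry TBI on day 3 (log2 3.83, SE 0.29, limma adjusted p = 1.03e-09), 3.22-fold on day 7 (1.69, SE 0.29, adjusted p = 6.10e-05) and 3.16-fold on day 28 (1.66, SE 0.29, adjusted p = 0.000109). In PBS TBI, it was 17.4-fold higher on day 3 (4.12, SE 0.29, adjusted p = 4.17e-10), 6.87-fold on day 7 (2.78, SE 0.29, adjusted p = 7.95e-08) and 3.02-fold on day 28 (1.59, SE 0.29, adjusted p = 0.000172). On day 3, it ranked 8 among the 740 probes by log2 difference in CR2-Crry TBI and 6 in PBS TBI. On day 7 the ranks were 78 and 40, and on day 28 they were 41 and 39. These folds rest on 17 to 32 counts per sham sample and shrank with a pseudocount. On the log2 scale of the value plus 20, the differences were 2.89, 1.05 and 1.04 in CR2-Crry TBI and 3.16, 1.94 and 0.98 in PBS TBI on the 3 days, all still called.

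Between days 3 and 28, Mmp12 moved the other way through these ranks. CR2-Crry TBI samples had it 6.30-fold higher than sham on day 3 (rank 26), 15.1-fold on day 7 (rank 5) and 11.5-fold on day 28 (rank 5), with log2 differences of 2.66, 3.92 and 3.52 (SE 0.30 each, limma adjusted p = 2.59e-07, 1.56e-09 and 1.81e-08). PBS TBI samples had it 7.91-fold higher on day 3 (rank 22), 14.1-fold on day 7 (rank 11) and 8.73-fold on day 28 (rank 6), with log2 differences of 2.98, 3.82 and 3.13 (SE 0.30 each, adjusted p = 5.41e-08, 1.44e-09 and 1.04e-07). The sham values behind these folds rest on 10 to 17 counts per sample, and with 20 added to each value the log2 differences were 1.53, 2.59 and 2.24 in CR2-Crry TBI and 1.80, 2.50 and 1.91 in PBS TBI, all still called. The size of the Mmp12 folds, and its ranks, are therefore less certain than the direction.

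Mmp14 differed from sham by a smaller factor. In CR2-Crry TBI, it was 2.22-fold higher on day 3, 1.58-fold on day 7 and 1.74-fold on day 28 (log2 1.15, 0.66 and 0.80, SE 0.20 each, limma adjusted p = 5.23e-05, 0.00856 and 0.00276). In PBS TBI, it was 2.22-fold higher on day 3, 2.48-fold on day 7 and 1.67-fold on day 28 (1.15, 1.31 and 0.74, SE 0.20 each, adjusted p = 5.09e-05, 1.12e-05 and 0.00498). Its ranks lay between 147 and 220 of 740.

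Marker genes of several cell types moved with these differences from sham. The summed level of 7 markers of microglia and macrophages ranged from 11106 to 12712 in the CR2-Crry TBI day 3 samples, from 12315 to 13051 in those of day 7 and from 6845 to 8718 in those of day 28. In PBS TBI, the ranges were 11478 to 12452, 14525 to 17306 and 7340 to 8823 for the same days, and in sham 3291 to 3528. All 7 were called higher in each of the 6 comparisons. For 3 markers of infiltrating monocytes and macrophages, the sums were between 538.3 and 722.7, between 231.9 and 300.6 and between 205.3 and 236.8 in CR2-Crry TBI, between 581.2 and 690.8, between 454.5 and 495.3 and between 164.3 and 256.4 in PBS TBI, and between 107.5 and 122.2 in sham. On days 3, 7 and 28, 3, 2 and 2 of them were called higher in CR2-Crry TBI and 3, 3 and 2 in PBS TBI. Sums of 8 markers of reactive astrocytes were between 11214 and 14062, between 6167 and 6853 and between 5241 and 11044 in CR2-Crry TBI, between 11755 and 14355, between 9842 and 12444 and between 5589 and 9427 in PBS TBI, and between 1093 and 3955 in sham. Of these 8, 7 were called higher in CR2-Crry TBI on day 7 and 8 in the other 5 comparisons. Of 5 neuronal markers, 4 were called lower in each comparison. Of all 740 probes, 88, 76 and 76 were called lower in CR2-Crry TBI on days 3, 7 and 28. In PBS TBI, the counts were 98, 70 and 60. Between 44.3% and 57.3% of all probes were called higher. Of 5 astrocyte markers, 5, 5 and 4 were called higher on these days in both arms. Of 3 oligodendrocyte markers, 2, 3 and 0 were called higher in CR2-Crry TBI and 1, 3 and 0 in PBS TBI. Of 5 endothelial markers, 3, 2 and 1 were called higher in both arms, and 1 was called lower on day 3. The part of these markers in the rise of the 3 genes was not tested.

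**Figure D2:**
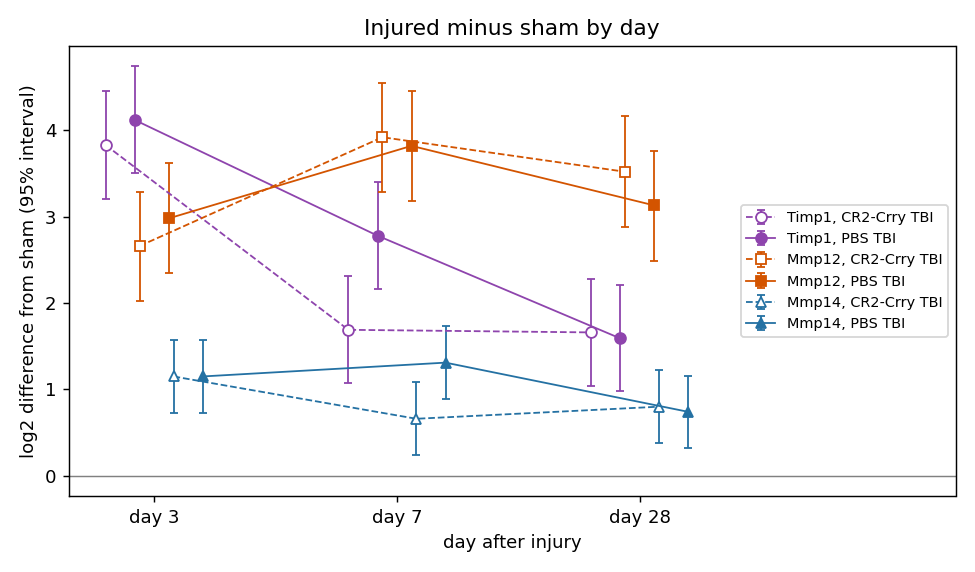
Log2 difference from sham with 95% interval on days 3, 7 and 28 for Timp1 (circles), Mmp12 (squares) and Mmp14 (triangles), in CR2-Crry TBI (open, dashed) and PBS TBI (filled, solid). The Timp1 difference is 4.12 on day 3 and 1.59 on day 28 in PBS TBI, while that of Mmp12 is above 2.6 on every day in both arms.

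The scaling of the samples bears on these values. When each sample was centred on its own median over all probes, the log2 differences from sham were lower by 0.68, 0.57 and 0.36 in CR2-Crry TBI on days 3, 7 and 28 and by 0.63, 0.74 and 0.33 in PBS TBI. Among the called probes, the share that was higher than sham was then between 30.3% and 37.4%, while it was between 79.6% and 85.8% with the deposited scaling. All 3 genes stayed above sham on this scale, and Timp1 (1.12 to 3.49) and Mmp12 (1.97 to 3.35) stayed called. Mmp14 was no longer called in CR2-Crry TBI on day 7 (0.09, adjusted p = 0.680) or in PBS TBI on day 28 (0.41, adjusted p = 0.0647).

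Next, the days were compared within each arm. The days also differed in the age of the mice, and the day 28 groups had received 3 further doses. In any comparison between days, these could not be told apart from time after injury. Timp1 fell early in both arms. In CR2-Crry TBI, it fell by 2.14 on the log2 scale on day 7 relative to day 3 (SE 0.29, limma adjusted p = 2.62e-05) and differed by -0.03 on day 28 relative to day 7 (adjusted p = 0.965, 95% interval -0.65 to 0.59). In PBS TBI, it fell by 1.34 on day 7 relative to day 3 (SE 0.29, adjusted p = 0.00271) and by a further 1.19 on day 28 relative to day 7 (SE 0.29, adjusted p = 0.00273). Over the whole span from day 3 to day 28, it fell by 2.17 in CR2-Crry TBI (adjusted p = 1.07e-05) and by 2.53 in PBS TBI (adjusted p = 1.69e-06).

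Mmp12 rose between days 3 and 7 in CR2-Crry TBI, by 1.26 (SE 0.30, limma adjusted p = 0.00537), and was still 0.87 above day 3 on day 28 (adjusted p = 0.0274). That second call was lost when any of CR2-Crry TBI day 3 replicates 1 and 2 or day 28 replicates 2 and 3 was left out (0.72 to 0.89, adjusted p = 0.0549 to 0.105). In PBS TBI, the difference of day 7 from day 3 was 0.83 and was not called (adjusted p = 0.0523). It was 1.22 and called (adjusted p = 0.00577) without replicate 1 of day 3, the sample with the high Mmp12 value. On day 28 relative to day 7, Mmp12 differed by -0.40 in CR2-Crry TBI (adjusted p = 0.393) and by -0.69 in PBS TBI (adjusted p = 0.0729).

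For Mmp14, 1 of 6 comparisons between days was called. It fell by 0.57 in PBS TBI on day 28 relative to day 7 (SE 0.20, limma adjusted p = 0.0279). This call was lost without PBS TBI day 7 replicate 2 and without PBS TBI day 28 replicate 1 or 2. The difference was -0.23 (adjusted p = 0.226) without the first, and adjusted p was 0.0735 and 0.0792 without replicates 1 and 2 of day 28. In CR2-Crry TBI, Mmp14 differed by -0.49 on day 7 relative to day 3 (adjusted p = 0.0961).

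Calls between days were frequent among all probes as well. For day 7 against day 3, day 28 against day 7 and day 28 against day 3, 19.1%, 25.0% and 43.6% of probes were called in CR2-Crry TBI and 25.1%, 45.1% and 44.9% in PBS TBI. Of the probes called in CR2-Crry TBI, 64.1%, 70.7% and 77.2% were higher on the later day with centred samples, and 36.2%, 10.8% and 24.1% with the deposited scaling. In PBS TBI, these shares were 44.2%, 74.3% and 73.5% with centred samples, and 73.7%, 13.5% and 30.4% with the deposited scaling. On the centred scale, Timp1 still fell between days 3 and 28 in both arms (-1.85 in CR2-Crry TBI and -2.23 in PBS TBI, adjusted p = 7.10e-06 and 6.45e-07), and the Mmp14 difference between days 28 and 7 in PBS TBI was -0.15 (adjusted p = 0.479).

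The order of the 7 groups by mean log2 value summarizes these courses. For Timp1, the order was PBS TBI day 3, CR2-Crry TBI day 3, PBS TBI day 7, CR2-Crry TBI day 7, CR2-Crry TBI day 28, PBS TBI day 28 and sham. Neighbours differed beyond their spread between CR2-Crry TBI day 3 and PBS TBI day 7 (log2 1.05, adjusted p = 0.0156, a contrast of arm and day at once), between both arms on day 7 and between PBS TBI day 28 and sham. For Mmp12, the order ran from CR2-Crry TBI day 7 over PBS TBI day 7, CR2-Crry TBI day 28, PBS TBI day 28 and PBS TBI day 3 to CR2-Crry TBI day 3 and sham. For Mmp14, it was PBS TBI day 7, CR2-Crry TBI day 3, PBS TBI day 3, CR2-Crry TBI day 28, PBS TBI day 28, CR2-Crry TBI day 7 and sham. For both proteases, the step from the lowest injured group to sham was the one neighbouring pair that was called.

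The effect of complement inhibition was then assessed by comparing CR2-Crry TBI with PBS TBI. On day 7, Timp1 was 0.469-fold of PBS TBI (log2 -1.09, SE 0.29, 95% interval -1.71 to -0.47, limma adjusted p = 0.0361), with 61.9 ± 10.3 normalized counts in CR2-Crry TBI and 136 ± 49.7 in PBS TBI (SD, n = 3 mice each). It was the only called gene of the 3, against 7.43% of probes called on that day. Mmp14 was 0.637-fold (log2 -0.65, SE 0.20, 95% interval -1.07 to -0.23, adjusted p = 0.0551), with 208 ± 17.4 in CR2-Crry TBI and 346 ± 151 in PBS TBI. Mmp12 was 1.07-fold (0.10, SE 0.30, 95% interval -0.53 to 0.74, adjusted p = 0.840), with 175 ± 57.3 in CR2-Crry TBI and 158 ± 25.7 in PBS TBI. The values of the 2 arms did not overlap for Timp1 and Mmp14, that is, for 2 of 3 genes, and the same was found for 33.5% of all probes on day 7.

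The day 7 call of Timp1 was near the threshold. It was lost in 5 of the 6 fits that left out a sample of that day. Without PBS TBI day 7 replicate 2, the difference was -0.81 (limma adjusted p = 0.155). In the other 4 fits it was -1.22 without PBS TBI replicate 1 (adjusted p = 0.0695) and -0.98, -1.09 and -1.22 without CR2-Crry TBI replicates 1, 2 and 3 (adjusted p = 0.129, 0.0829 and 0.0587). The Mmp14 difference was -0.32 without PBS TBI replicate 2, and it was called at -0.89 without replicate 1 (adjusted p = 0.0448) and at -0.74 without replicate 3 of the same group (adjusted p = 0.0429). On the centred scale, Timp1 was still lower (-0.92, adjusted p = 0.0459), while the split of all called probes went to 25 higher and 20 lower, against 2 higher and 53 lower with the deposited scaling.

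On day 3, no gene of the 3 was called, and 0% of probes were called. Timp1 differed by -0.29 (95% interval -0.91 to 0.33), Mmp12 by -0.33 (-0.96 to 0.31) and Mmp14 by 0.00 (-0.42 to 0.42). On day 28, again with 0% of probes called, the differences were 0.07 for Timp1 (-0.55 to 0.68), 0.40 for Mmp12 (-0.24 to 1.03) and 0.06 for Mmp14 (-0.37 to 0.48). The values of both arms overlapped for each of the 3 genes on days 3 and 28, when 9.73% and 6.62% of all probes did not overlap. Averaged over the days, the difference was -0.44 for Timp1 (95% interval -0.80 to -0.08, limma adjusted p = 0.407), 0.06 for Mmp12 (-0.31 to 0.42, adjusted p = 0.929) and -0.20 for Mmp14 (-0.44 to 0.05, adjusted p = 0.615), with 0% of probes called. In limma, 27 probes had an unadjusted p under 0.05 on day 3, 15 on day 28 and 65 in the mean of the days.

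**Figure D3:**
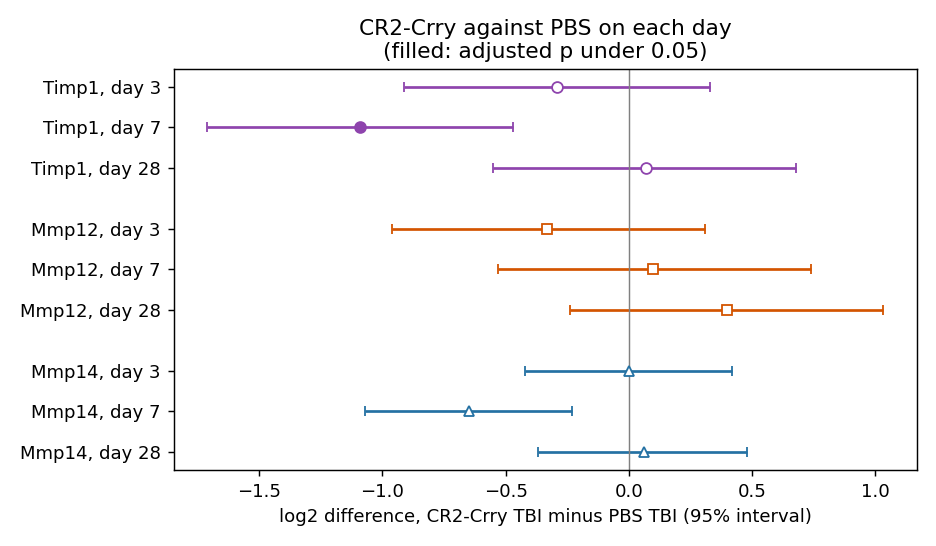
Log2 difference of CR2-Crry TBI minus PBS TBI with its 95% interval for each gene and day, filled where the adjusted p was under 0.05. Timp1 on day 7 (-1.09) is filled, the Mmp14 interval on day 7 also lies below 0, and the other 7 intervals include 0.

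Whether the CR2-Crry effect differed between days was tested directly, and 0% of probes were called in any of the 3 comparisons. Against day 28, the 3 further doses of that day could not be told apart from time. The Timp1 effect was 1.16 higher on day 28 than on day 7 (SE 0.42, limma adjusted p = 0.153) and 0.80 lower on day 7 than on day 3 (log2 -0.80, SE 0.42, adjusted p = 0.323). The Mmp14 effect was 0.71 higher on day 28 than on day 7 (SE 0.28, adjusted p = 0.175) and differed by -0.65 between days 7 and 3 (adjusted p = 0.264). For Mmp12, the differences were 0.29 and 0.43 (SE 0.43 each, adjusted p = 0.745 and 0.608). In limma, 124, 144 and 25 probes had an unadjusted p under 0.05 for day 7 against day 3, day 28 against day 7 and day 28 against day 3. The count of 0 depended on the fit, since sample weights called 78 probes for day 28 against day 7, Timp1 among them (1.38, adjusted p = 0.0211), and 2 for day 7 against day 3, and the groups of the contrast alone called 21 for day 7 against day 3.

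Sums over some lists of marker genes were also lower in CR2-Crry TBI on day 7, but no list was tested. On that day, 53 of the 55 probes called among all (7.43% called) were lower, and the arms did not overlap for 33.5% of probes. The summed level of 3 markers of infiltrating monocytes and macrophages (Ccr2, Msr1 and Cd163) lay between 231.9 and 300.6 normalized counts in CR2-Crry TBI and between 454.5 and 495.3 in PBS TBI. Of the 3, 1 was called lower, and the lowest single value was 59.56 in CR2-Crry TBI and 81.81 in PBS TBI, so none was at 0. The sum of 8 markers of reactive astrocytes lay between 6167 and 6853 in CR2-Crry TBI and between 9842 and 12444 in PBS TBI. Of the 8, 2 were called lower, Serpina3n among them, while Cd44 was not called (log2 -0.10, limma adjusted p = 0.740). Serpina3n and Cd44 are also among the matrix genes described last. For 7 markers of microglia and macrophages, the sums were between 12315 and 13051 in CR2-Crry TBI and between 14525 and 17306 in PBS TBI, with 1 of 7 called lower. Sums over 3 oligodendrocyte markers were higher in CR2-Crry TBI (4025 to 4284) than in PBS TBI (3666 to 3843), with 0 of 3 called. Sums over markers of astrocytes (5), neurons (5) and endothelium (5) overlapped between the arms. Ttr, made by the choroid plexus, was between 2084 and 2431 in CR2-Crry TBI and between 308.4 and 1547 in PBS TBI, lowest in PBS TBI replicate 2, the library with the highest Timp1 and Mmp14 on that day. Ttr was 1 of the 2 probes called higher in CR2-Crry TBI (log2 1.52, limma adjusted p = 0.0270), and it was called lower than sham in PBS TBI (-1.67, adjusted p = 0.000474) and not in CR2-Crry TBI (-0.15, adjusted p = 0.731). By symbol, 0 of 7 listed markers of fibroblasts and mural cells were found, and 54 of the 757 probes had no symbol. The part of these shifts in the Timp1 and Mmp14 values was not tested.

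To describe protease and inhibitor transcripts against each other, the log2 ratio of 2 genes was taken within each sample. It was set against the mean ratio of sham, so that any factor common to a sample cancels. Protein and enzyme activity were not measured. Mmp12 over Timp1 had group means below the sham mean on day 3 and above it later. The CR2-Crry samples had -1.12, -1.06 and -1.35 on day 3, 1.85, 2.61 and 2.24 on day 7 and 1.24, 2.45 and 1.89 on day 28. The PBS samples had -0.34, -1.97 and -1.10 on day 3, 1.42, 0.18 and 1.51 on day 7 and 1.48, 1.36 and 1.75 on day 28, and in sham 0.78, 0.12 and -0.90. On day 28, all 6 injured samples lay above the sham range. PBS TBI day 3 replicate 1 (-0.34) and day 7 replicate 2 (0.18) lay within that range. The sham ratios rest on 10 to 17 counts of Mmp12 and 17 to 32 counts of Timp1 per sample. Averaged over both arms, the ratio rose by 2.79 on day 7 relative to day 3, a factor of 6.91, and by 2.85 on day 28 relative to day 3 (exact two-sided permutation of days within arms, p = 0.00500 and adjusted p = 0.0112 each, the smallest p that 400 arrangements can give). It differed by 0.06 on day 28 relative to day 7 (exact permutation adjusted p = 0.840).

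Mmp14 over Timp1 stood below sham on day 3 and moved back towards it. Its mean in CR2-Crry TBI was -2.68 ± 0.11 on day 3, -1.03 ± 0.13 on day 7 and -0.86 ± 0.41 on day 28. The mean in PBS TBI was -2.97 ± 0.32 on day 3, -1.47 ± 0.20 on day 7 and -0.85 ± 0.45 on day 28, and the SD in sham was 0.59 (SD, n = 3 mice each). The rise was 1.58 on day 7 and 1.97 on day 28, both relative to day 3 (exact permutation adjusted p = 0.0112 each), and the difference of day 28 from day 7 was 0.39 (adjusted p = 0.154).

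Mmp12 over Mmp14 was above sham in every injured sample. It rose by 1.21 on day 7 and by 0.88 on day 28, both relative to day 3 (exact permutation adjusted p = 0.0270 and 0.0375), and differed by -0.33 between days 28 and 7 (adjusted p = 0.349). The first rise was not called in 4 and the second in 9 of 18 fits that left out an injured sample, with ranges of 1.05 to 1.46 and 0.72 to 1.13. Those 4 samples were PBS TBI day 3 replicates 2 and 3 and day 7 replicates 1 and 3, and the 9 samples were PBS TBI day 3 replicates 2 and 3 and day 28 replicates 2 and 3, all 3 of CR2-Crry TBI day 3 and CR2-Crry TBI day 28 replicates 2 and 3. Leaving out a sample also leaves fewer arrangements.

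Against PBS TBI within days, CR2-Crry TBI had log2 ratios that differed by 0.49 for Mmp12 over Timp1, by 0.24 for Mmp14 over Timp1 and by 0.25 for Mmp12 over Mmp14 (exact two-sided permutation of treatment within days, 8000 arrangements, adjusted p = 0.157, 0.157 and 0.388 over 3 tests). On day 7, the 3 CR2-Crry samples of the first ratio lay above the 3 PBS samples. An exact permutation of 3 against 3 samples cannot go below 0.10, and no other test of a ratio against sham was run, so those values are given without a test.

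**Figure D4:**
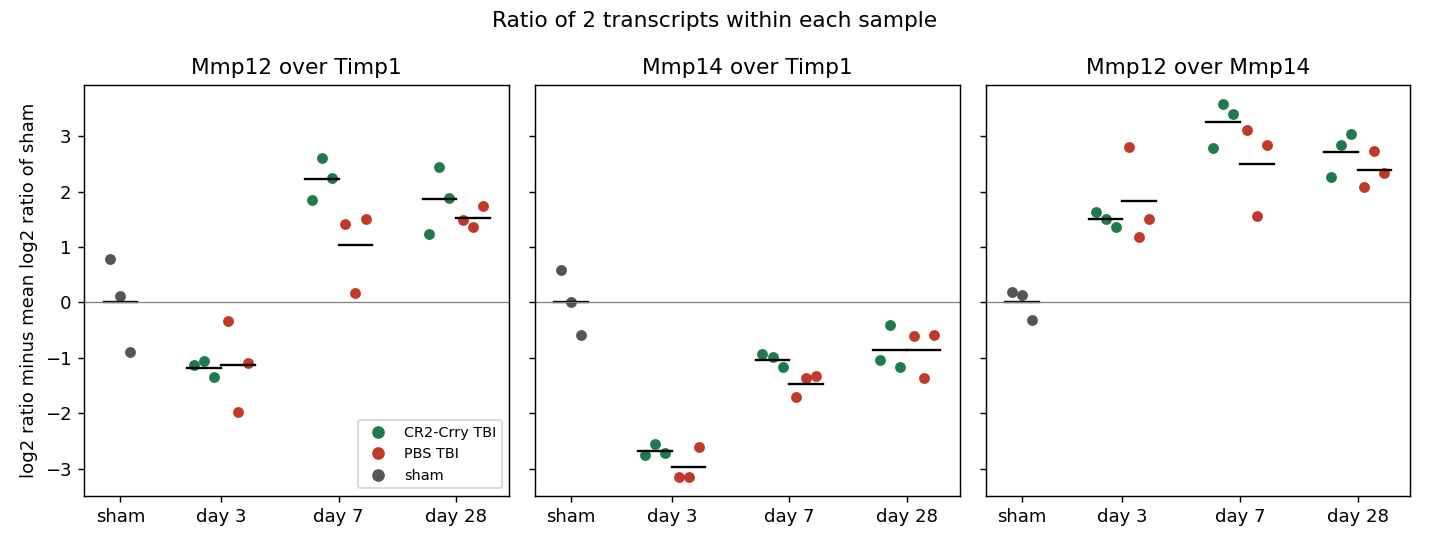
Log2 ratio of 2 genes in each sample minus the mean log2 ratio of sham, by day, with CR2-Crry TBI (green) left of PBS TBI (red) and sham (grey) at the left end. Bars are means of 3 mice. Mmp12 over Timp1 lies below 0 in all samples of day 3 and above 0 in all later injured samples.

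The 3 genes did not share one pattern. Over the 21 samples, Timp1 and Mmp14 had a Pearson correlation of 0.82, Mmp12 and Mmp14 of 0.59 and Timp1 and Mmp12 of 0.45. Among the 18 injured samples, these were 0.68, -0.27 and -0.47, and for deviations from the group means they were 0.49, -0.20 and -0.10. The points share their days and their scaling, so these are descriptions without a test.

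Other genes of the panel were closer to each of them. The probes most like Timp1 were Emp1, a membrane protein (r = 0.969 over 21 samples), Ifitm2, an interferon-induced membrane protein (0.969), Srgn, the proteoglycan core serglycin (0.967), Tm4sf1 (0.967) and the ribosomal protein gene Rps2 (0.958). Among the injured samples alone, these were between 0.939 and 0.969, and for deviations from group means between 0.437 and 0.818. Their folds over sham in PBS TBI were largest on day 3 for all 5, with 5.65 for Emp1 and 1.56 for Rps2.

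The probes most like Mmp12 were the receptor kinase Axl (0.930), the complement gene C4a (0.922), the microglial lipid receptor Trem2 (0.918), Ly9 (0.917) and Siglecf (0.910). All 5 had their largest fold over sham in PBS TBI on day 7, 10.2 for Trem2 and 2.66 for Axl. These likenesses rest more on the gap between injured and sham brains, since among the injured samples r was between 0.501 and 0.733 and for deviations from group means between -0.140 and 0.477. C4a has a near-identical copy, C4b, so its signal may hold both. For Mmp14, the closest were Cnn2, an actin-binding protein (0.893), the monocyte chemokine receptor Ccr2 (0.885), Mavs (0.883), Crip1 (0.875) and the apoptosis inhibitor Birc3 (0.867), with r between 0.709 and 0.811 among the injured samples and between 0.427 and 0.753 for deviations.

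Other genes of the matrix system were taken from 3 lists of proteases, inhibitors and matrix components with their receptors. Of 95 listed genes, 12 were found by symbol on the panel, and all passed the filter. In CR2-Crry TBI, 10, 10 and 8 of the 12 were called higher than sham on days 3, 7 and 28, and in PBS TBI 9, 11 and 9, with 0 called lower. Among all probes, 53.0%, 48.0% and 44.3% were called higher in CR2-Crry TBI and 51.6%, 57.3% and 44.5% in PBS TBI. Their median log2 difference was 0.73, 0.95 and 0.69 in CR2-Crry TBI and 0.92, 1.21 and 0.76 in PBS TBI. With centred samples, 5, 6 and 6 of the 12 were called higher and 4, 2 and 3 lower in CR2-Crry TBI. In PBS TBI, 6, 6 and 7 were called higher and 3, 3 and 2 lower. Calls in both directions thus appeared, with more of the 12 higher than lower in each comparison on both scales. Among all 740 probes with centred samples, 176, 173 and 167 were called higher and 404, 387 and 311 lower in CR2-Crry TBI. In PBS TBI, these counts over all probes were 191, 192 and 164 higher and 400, 406 and 274 lower.

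Of 32 listed proteases, 1 was found by symbol, the secreted protease Adamts16, at most 1.26-fold above sham (PBS TBI day 7, limma adjusted p = 0.000192). The 4 inhibitors rose in all 6 comparisons. Serpina3n, a serine protease inhibitor of reactive astrocytes, was 15.4-fold, 11.6-fold and 13.5-fold higher in CR2-Crry TBI on days 3, 7 and 28 and 16.2-fold, 19.8-fold and 12.3-fold higher in PBS TBI. The lowest of these 6 folds was 11.6, and the lowest of Timp1 was 3.02. Cst7, an inhibitor of lysosomal cysteine proteases known from activated microglia, was 1.56-fold, 4.48-fold and 3.78-fold higher in CR2-Crry TBI and 1.98-fold, 7.67-fold and 4.29-fold higher in PBS TBI. Serpinf1 and the C1 inhibitor gene Serping1 were between 1.53-fold and 3.98-fold higher.

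Among 7 matrix components and receptors, Ptx3, a pentraxin that binds matrix proteins, had its largest fold on day 3 as Timp1 did, 6.44 in CR2-Crry TBI and 8.28 in PBS TBI. On day 28, it was 3.90-fold higher in CR2-Crry TBI and 2.62-fold higher in PBS TBI. The hyaluronan receptor Cd44 was between 1.53-fold and 1.99-fold higher in all 6 comparisons, and the integrin subunit Itgb5 between 1.89-fold and 2.94-fold. The elastic fibre protein Fbln5 was called on day 28 in CR2-Crry TBI (1.46-fold) and on days 7 and 28 in PBS TBI (1.48-fold and 1.41-fold). Itga6 was called on days 3 and 7 in both arms, Itga7 in all comparisons but CR2-Crry TBI on day 28 (1.14-fold, adjusted p = 0.0519), and Itgav in none.

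In CR2-Crry TBI against PBS TBI on day 7, 2 of the 12 were called, both inhibitors and both lower, against 7.43% of all probes called, 53 of 55 of them lower. Serpina3n was 0.586-fold (log2 -0.77, SE 0.21, limma adjusted p = 0.0383), with 1313 ± 200 normalized counts in CR2-Crry TBI and 2239 ± 311 in PBS TBI (SD, n = 3 mice each). Serpinf1 was 0.707-fold (-0.50, SE 0.11, adjusted p = 0.0218). All 12 had values below 0, between -0.78 for Cst7 (adjusted p = 0.0637) and -0.03 for Itga7, with a median of -0.29, and the median of all probes was -0.11, with 74.7% of them below 0. With centred samples, the medians were -0.12 for the 12 and 0.06 for all probes. On days 3 and 28, 0 of the 12 were called, with medians of -0.04 and 0.05.

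**Figure D5:**
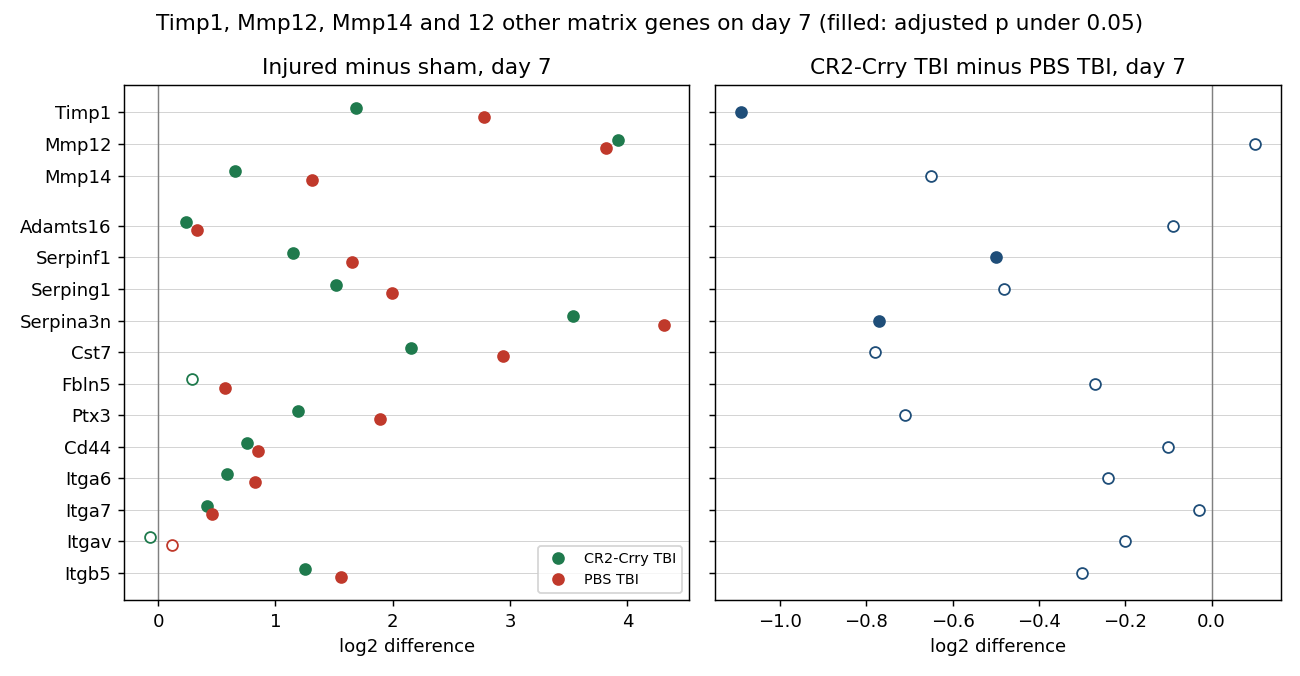
Log2 differences on day 7 for Timp1, Mmp12, Mmp14 and 12 other matrix genes of the panel, on the left of CR2-Crry TBI (green) and PBS TBI (red) from sham and on the right of CR2-Crry TBI from PBS TBI, filled where the adjusted p was under 0.05. On the right, Timp1, Serpinf1 and Serpina3n are filled, and Mmp12 (0.10) is the one value above 0.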

How the data were processed

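RNA of the right hemisphere of 21 mice (7 groups of 3) was counted by NanoString probes. Per the study's methods, nSolver was used for background thresholding and for scaling on the geometric mean of housekeeping genes, and the authors deposited these normalized counts as 1 linear signal per probe and sample. Values went down to 2.14, so it is not settled whether thresholding is in them, and negative controls were not used here. The values were whole multiples of a step of 0.786 to 1.25 per sample (at least 99.87% within 0.0075), from which counts and totals were computed. Counting intervals and errors cover counting only. Of 757 probes, 703 had 1 symbol in the platform annotation and 54 had none.

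Log2 values without a pseudocount were fitted with limma 3.58.1 in R 4.3.3 (1 mean per group, all 21 samples, mean-variance trend) on the 740 probes above 20 in at least 3 samples, with Benjamini-Hochberg adjustment over all of them per comparison and calls at 0.05. The fit was tested on simulated data. Ratios were tested by exact two-sided permutation in Python 3.11.15 with scipy 1.17.1. Likeness was Pearson's r of log2 values, and the 5 nearest named probes per gene are given. Motifs and sequences were read from RefSeq tables (GRCm38.p6). The genes, lists and tests were chosen with earlier results of these data known. Alternatives were the moderation, samples in the fit, sample weights, pseudocount, filter, centring, replicate block, sham of the same age and leaving out each sample. Limma p-values rest on 1 spread per probe, pooled over the 7 groups of 3 mice and moderated across probes. Only the unmoderated test uses the spread of the compared groups alone. Permutation p-values rest on rearranged labels. Gene names are those of the panel.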

Additional observations from a re-analysis of the deposited data

How the results depend on the processing

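Of the 18 comparisons with sham, all kept their direction under every alternative run. Calls were lost with samples centred on their median for Mmp14 in CR2-Crry TBI on day 7 (0.09) and PBS TBI on day 28 (0.41), with the sham sample of the same age alone for Mmp14 in CR2-Crry TBI on day 7 (0.65), and with an unmoderated test of unequal variances for Timp1 in CR2-Crry TBI on day 28 (1.66) and Mmp14 in PBS TBI on day 7 (1.31). The day 7 difference of Timp1 between CR2-Crry TBI and PBS TBI stayed at -1.09 but was not called without the mean-variance trend (adjusted p = 0.0524), with the unmoderated test (0.281) or with the replicate number as a block (0.0538). With that block, 20 probes were called on day 7 in place of 55. Deviations of same-numbered samples had a median r of -0.00306 (range -0.405 to 0.229, n = 63 pairs). For samples with other numbers, the median r was 0.00665 (range -0.258 to 0.325, n = 126 pairs). The labels do not say that the numbers pair samples, and a shared batch was not tested. The block changed no other call of the 3 genes. Over all probes, day 7 calls were 20 without the trend, 84 with the groups of the contrast alone, 141 with sample weights, 85 with voom, 211 with adjustment over probes with p under 0.05 and 0 unmoderated. The adjustment over probes with p under 0.05 also called 27 probes on day 3, 15 on day 28 and 65 in the mean of days (0 each before), and the fit with the groups of the contrast alone called 1 on day 3. That adjustment called Timp1 in the mean of days (-0.44) and Mmp14 on day 7 (-0.65), and sample weights called Mmp14 on day 7 (-0.67) and the Timp1 effect on day 28 against day 7 (1.38). For the CR2-Crry effect between days (0 probes called), sample weights called 78 on day 28 against 7 and 2 on day 7 against 3, and the groups of the contrast alone 21 on day 7 against 3.

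Between days, the unmoderated test did not call Timp1 in PBS TBI on day 7 against 3 (-1.34) and 28 against 7 (-1.19) and in CR2-Crry TBI on day 28 against 3 (-2.17), Mmp12 in CR2-Crry TBI on day 7 against 3 (1.26) and 28 against 3 (0.87), or Mmp14 in PBS TBI on day 28 against 7 (-0.57). The last was also lost with the groups of the contrast alone (-0.57) and with centring (-0.15). Mmp12 on day 7 against 3 in PBS TBI was called with sample weights (0.94), a pseudocount of 20 (0.69) and voom (0.82). With the groups of the contrast alone, Mmp12 in PBS TBI on day 28 against 7 (-0.69), Mmp14 in PBS TBI on day 28 against 3 (-0.41) and Mmp14 in CR2-Crry TBI on day 7 against 3 (-0.49) were called. Timp1 in CR2-Crry TBI on day 28 against 7 turned to 0.12 with sample weights and 0.19 with centring, both uncalled. Unmoderated, calls over all probes fell to 172 and 229 against sham on day 28 in CR2-Crry TBI and PBS TBI (404 and 389 with the moderated fit), and to between 1 and 131 in the 6 comparisons between days (141 to 334). Centring called 280 probes in CR2-Crry TBI on day 28 against 7 (185 before). It also changed the counts of other matrix genes to 4, 2 and 3 lower in CR2-Crry TBI and 3, 3 and 2 lower in PBS TBI (0 before), 5 and 6 higher in CR2-Crry TBI on days 3 and 7 (10 each before) and 6 higher in PBS TBI on day 7 (11 before).

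Leaving out 1 sample at a time, CR2-Crry TBI minus PBS TBI ranged from -1.25 to -0.81 (Timp1, day 7), -0.12 to 0.38 (Timp1, day 28), -0.64 to 0.06 (Mmp12, day 3), -0.08 to 0.41 (Mmp12, day 7), -0.05 to 0.19 (Mmp12, mean of days), -0.89 to -0.32 (Mmp14, day 7) and -0.05 to 0.14 (Mmp14, day 28). Between days, ranges were -0.21 to 0.29 (Timp1, CR2-Crry TBI, 28 against 7), 0.52 to 1.22 (Mmp12, PBS TBI, 7 against 3), -0.17 to 0.53 (Mmp12, PBS TBI, 28 against 3), 0.72 to 0.99 (Mmp12, CR2-Crry TBI, 28 against 3), -0.17 to 0.40 (Mmp14, PBS TBI, 7 against 3) and -0.81 to -0.23 (Mmp14, PBS TBI, 28 against 7). For the CR2-Crry effect, they were 0.87 to 1.48 (Timp1, 28 against 7, called at 1.48 without CR2-Crry TBI day 28 replicate 2), -0.01 to 0.47 (Mmp12, 28 against 7) and -0.05 to 0.18 (Mmp14, 28 against 3). For ratios, they were -0.15 to 0.22 (Mmp12 over Timp1, 28 against 7), 0.35 to 0.63 (the same, CR2-Crry against PBS, called at 0.63 without PBS TBI day 3 replicate 1), 1.05 to 1.46, -0.57 to -0.18 and 0.72 to 1.13 (Mmp12 over Mmp14, 7 against 3, 28 against 7 and 28 against 3). The second of these was called at -0.57 without PBS TBI day 7 replicate 2. The causes were not tested. Limma's voom on recovered counts was added after seeing the data, and the 2 planned count-model alternatives were not run, because the step test did not hold for every value. Depth limits Mmp12 and Timp1 in sham most.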
